A study of Mus musculus with 14 samples.

Results

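Nicotinamide (NAM), the compound given in this study, is the substrate of *Nampt* and *Nnmt*, and its products pass through a small set of further enzymes. The 10 genes described here (*Nampt*, *Nmrk1*, *Naprt*, *Qprt*, *Nmnat1*, *Nmnat2*, *Nmnat3*, *Nadsyn1*, *Nadk* and *Nnmt*) encode enzymes that use, recycle or methylate NAM or build NAD, and they were picked by symbol alone among the 56414 genes of the deposited table. Each symbol matched 1 gene. RNA-seq of polyadenylated RNA had been performed on whole mammary tumors of C57Bl/6 mice, with 1 library per tumor. In the M/D model, female mice 6 to 9 weeks old carried a 50 mg pellet of medroxyprogesterone acetate (MPA, a synthetic progestin) and were gavaged 6 times with the carcinogen DMBA, so that tumors arose within the host. In the AT3 model, cells of AT3, a mouse mammary carcinoma cell line, were injected under the skin, so that all tumors of this model descend from 1 line. In both models, mice whose tumor had grown to 0.25 cm2 were left untreated or were given 0.5% NAM in drinking water for 10 days. The groups were 4 untreated M/D-driven tumors, 4 NAM-treated M/D-driven tumors, 3 untreated AT3 tumors and 3 NAM-treated AT3 tumors, with 40936868 to 84178009 reads counted per tumor.

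NAD is made by several routes that meet at the last steps. NAMPT joins NAM to phosphoribosyl pyrophosphate to give nicotinamide mononucleotide (NMN), and is regarded as the rate-limiting step of salvage in most mammalian tissues. NMRK1 gives the same product from nicotinamide riboside. NAPRT and QPRT give the acid form of the mononucleotide, from nicotinic acid and from quinolinate (the end of the kynurenine route) respectively. The NMNAT enzymes, of the nucleus (NMNAT1), the Golgi and cytosol (NMNAT2) and the mitochondria (NMNAT3), turn both mononucleotides into dinucleotides, NADSYN1 amidates the acid form to NAD, and NADK phosphorylates NAD to NADP. NNMT methylates NAM at the expense of S-adenosylmethionine and so removes it from salvage. *NAMPT* is often abundant in carcinomas and in myeloid cells, and *NNMT* is well known from the fibroblasts of tumor stroma, so that a whole tumor sums several sources. In such bulk samples, fewer cells of a type and less RNA per cell cannot be told apart.

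A single library stood apart from its group. NAM-treated M/D-driven tumor 1, the only M/D-driven tumor that the labels place in experiment 2, was the lowest of the 8 in each of 7 epithelial markers, while each of 5 B cell markers peaked in it. Its summed normalized count of epithelial markers was 7047.0, against 250181.1 to 1013084.4 in the other 7 tumors, and that of B cell markers was 190641.1, against 99.88 to 1729.5. All 7 epithelial markers were above 0 in all 14 tumors, AT3 tumors included. Where this tumor decided a call or a sign in M/D-driven tumors, or moved a fold change by more than 1.5-fold, the value without it is also given. The AT3 tumors, all of experiment 3, appear to have been normalized apart from the M/D-driven tumors, as their median ratio to the mean of all 14 was 0.837 to 0.895, against 1.1 to 1.166. Normalized counts are therefore compared within a model, and levels between models are given on a common scale set over the 14 tumors.

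Few of these genes passed the thresholds with NAM (a limma p up to 0.05 together with a change of 1.5-fold or more, values given in the methods of the study, with p taken here before adjustment). In M/D-driven tumors 0 of the 10 genes passed, against 6.22% of the 21700 genes tested (3.03% higher and 3.19% lower). In AT3 tumors 1 of the 10 passed, *Nmnat1*, which was lower with NAM, against 23.1% of the 19281 genes tested (12.2% higher and 10.9% lower). All 10 genes passed the filter on low values, a group mean of 10 in any of the groups compared. The median log2 fold change of the 10 was 0.15 in M/D-driven tumors, against 0.01 over all genes tested, and −0.16 in AT3 tumors, against −0.05. Adjusted p values (Benjamini-Hochberg, over all genes tested) were 0.773 or more for each of the 10 genes in M/D-driven tumors and 0.176 or more in AT3 tumors.

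**Figure D1:**
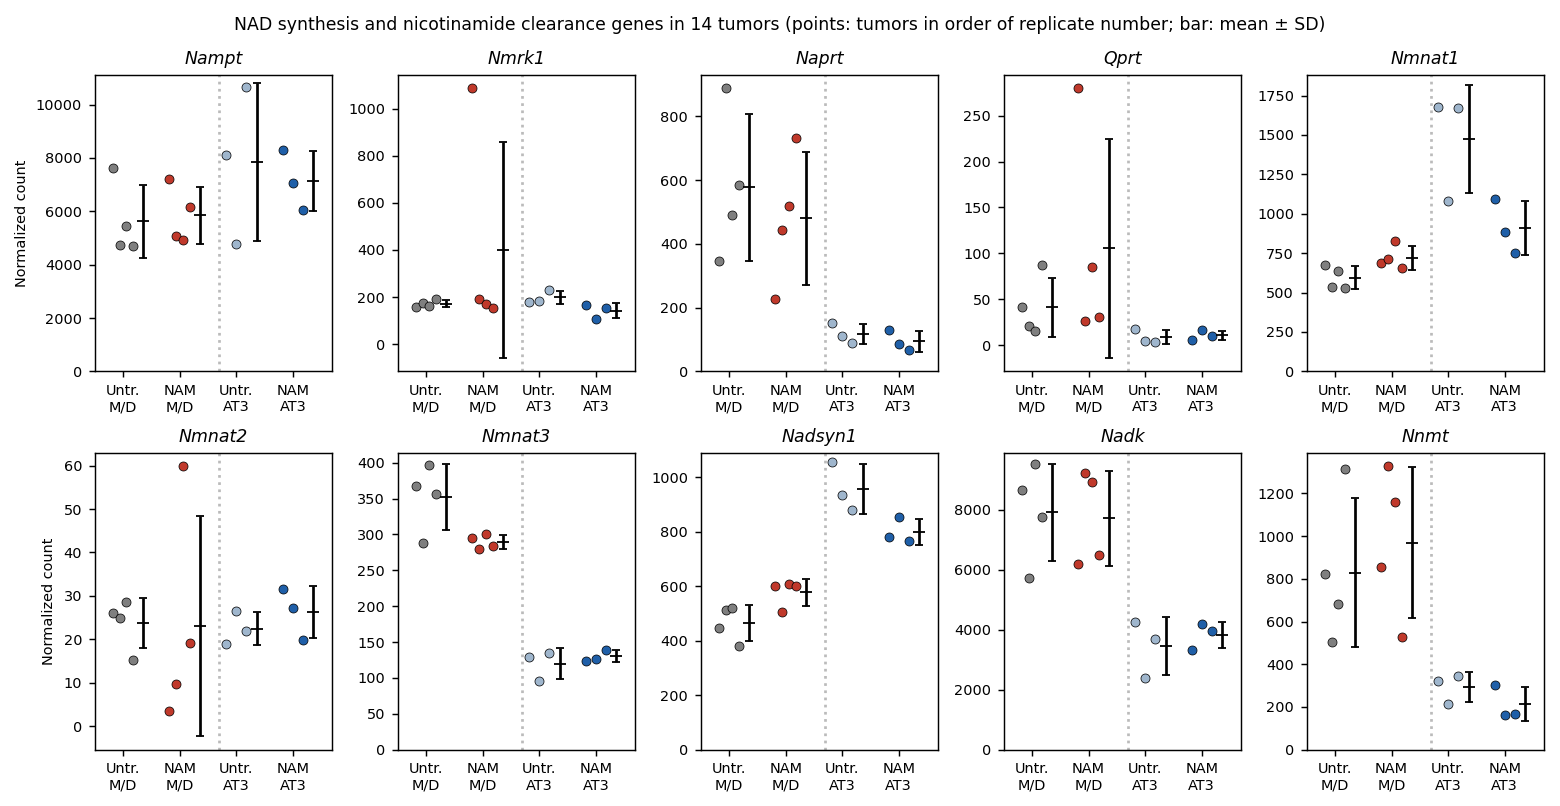
Normalized count of each gene (vertical axes, from the deposited table) in each of the 14 tumors, by model and treatment; points are tumors and bars are the mean ± SD (n = 4 or 3). The single high point of *Nmrk1* (1087.4) and that of *Qprt* (280.1) belong to NAM-treated M/D-driven tumor 1.

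*Nampt* (GSMG0007946, chr12:32820335-32853369 on mm10) was the most abundant salvage enzyme and did not pass the thresholds with NAM in either model. Its normalized counts were 7614.8, 4745.8, 5441.4 and 4717.4 in untreated M/D-driven tumors and 7229.5, 5091.6, 4939.3 and 6174.6 in NAM-treated ones. The groups overlapped almost entirely, and tumor 1 was the highest of each. The log2 fold change was 0.07 (standard error, SE, 0.22, 95% confidence interval −0.43 to 0.57, limma adjusted p = 0.961), and −0.038 without NAM-treated tumor 1. In AT3 tumors the values were 8101.0, 4765.9 and 10665.5 when untreated and 8300.9, 7058.5 and 6055.3 with NAM, and the untreated tumors spread far more widely. The log2 fold change there was −0.07 (SE 0.30, interval −0.76 to 0.62, limma adjusted p = 0.897). A change of *Nampt* beyond these intervals in either direction was thus not seen, whereas smaller ones could not be resolved with 3 or 4 tumors a group.

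*Nnmt* (GSMG0040713, chr9:48591877-48605125 on mm10), which diverts NAM by methylation, varied over a wide range among tumors of the same group. Untreated M/D-driven tumors had 820.6, 502.0, 682.6 and 1312.5 normalized counts, and NAM-treated ones had 856.5, 1329.8, 1159.8 and 527.9. Both groups thus spanned the same range, and the log2 fold change was 0.23 (SE 0.39, limma adjusted p = 0.909). In AT3 tumors, 323.2, 213.2 and 343.5 were set against 303.8, 164.6 and 168.5, with a log2 fold change of −0.49 (SE 0.34, limma adjusted p = 0.365). NAM-treated AT3 tumors 2 and 3 lay below all untreated ones, but the sign turned to 0.11 once a trend with transcript length, described below for *Nmnat1*, was removed. The *Nnmt* mRNA, of 1043 bases, is the shortest of the 10.

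The other entry points to NAD gave no call either. *Naprt* (GSMG0014143, chr15:75890964-75894484 on mm10), which serves nicotinic acid, had 345.9, 889.8, 490.4 and 585.0 normalized counts in untreated M/D-driven tumors and 227.5, 442.1, 518.2 and 733.2 with NAM. The groups overlapped, with a log2 fold change of −0.30 (SE 0.43) that became 0.02 without NAM-treated tumor 1. In AT3 tumors *Naprt* was at 152.2, 109.7 and 90.35 untreated and at 131.2, 86.55 and 66.91 with NAM, a log2 fold change of −0.33 (SE 0.37). In the GENCODE annotation, 277 exonic bases of *Naprt* (11.8%) also belong to its neighbor *Eef1d* on the same strand, and how reads there were counted is not given in the sources used here. None of the other 9 genes shares exonic bases with another gene.

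The fold changes of *Nmrk1* and *Qprt* in M/D-driven tumors rested on 1 library. *Nmrk1* (GSMG0019493, chr19:18631961-18652191 on mm10), the nicotinamide riboside kinase, was tightly held in untreated M/D-driven tumors, at 158.9, 174.9, 162.2 and 193.9 normalized counts. It was at 1087.4 in NAM-treated tumor 1 and at 190.0, 169.4 and 154.0 in the other 3, which lay within or just under the untreated range. Its log2 fold change of 0.65 (SE 0.61, limma adjusted p = 0.82) became −0.01 without tumor 1. *Qprt* (GSMG0036681, chr7:127107771-127122045 on mm10), which feeds quinolinate into NAD, was at 41.55, 20.64, 15.77 and 86.91 untreated and at 280.1, 26.79, 84.68 and 30.48 with NAM. Its log2 fold change of 0.99 (SE 0.86, limma adjusted p = 0.808) became 0.30 without tumor 1. Whether the B cell RNA of this tumor carried the 2 values was not tested, and the experiment and the cells of this tumor cannot be told apart in a single library.

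**Figure D2:**
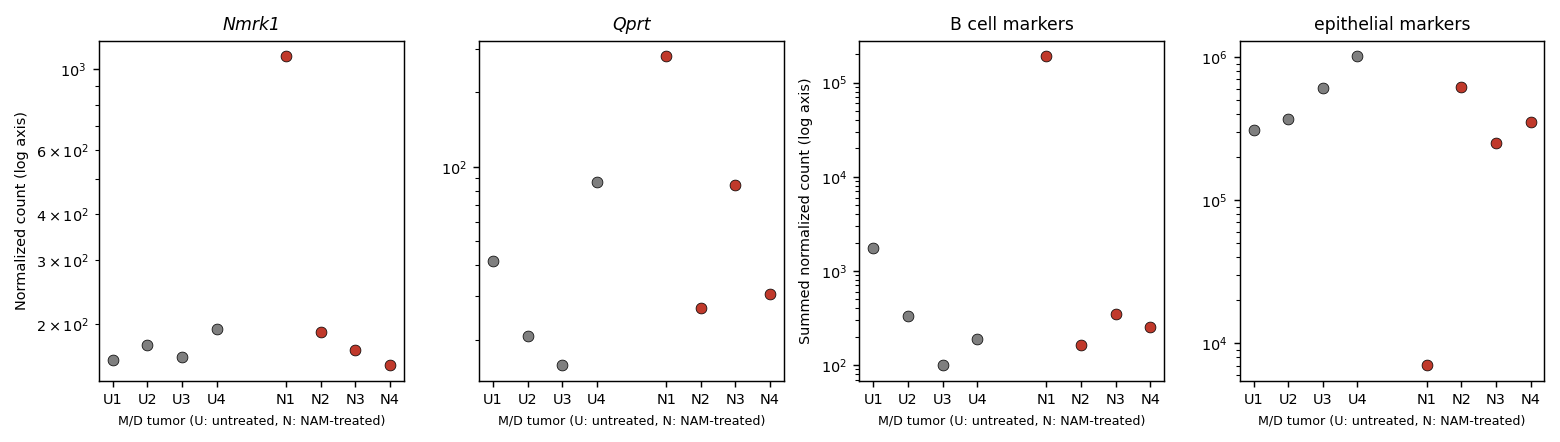
*Nmrk1*, *Qprt* (normalized count) and the summed normalized counts of 5 B cell and 7 epithelial markers (log axes) in the 8 M/D-driven tumors, U for untreated and N for NAM-treated, numbered by replicate. Tumor N1 is the highest in the first 3 panels (1087.4, 280.1 and 190641.1) and the lowest in the last (7047.0).

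In AT3 tumors *Nmrk1* was at 181.1, 184.8 and 229.5 normalized counts untreated and at 167.7, 106.3 and 152.0 with NAM. These groups did not overlap, as was the case for 22.6% of all genes tested in this model. The log2 fold change of −0.50 (SE 0.29, limma adjusted p = 0.306) nevertheless fell short of the thresholds, and was −0.03 after removal of the length trend. *Qprt* was barely detected in AT3 tumors, at 17.39, 5.077 and 3.256 untreated and 6.075, 15.99 and 9.913 with NAM, and no direction could be read from these values.

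Among the NMNAT enzymes, *Nmnat1* (GSMG0028673, chr4:149467572-149485296 on mm10) had fold changes of opposite sign with NAM in the models. In AT3 tumors its normalized count was 1676.7, 1078.3 and 1670.3 untreated and 1091.1, 882.4 and 752.6 with NAM, or 1475.1 ± 343.7 (SD, n = 3) against 908.7 ± 170.8 (SD, n = 3). The groups overlapped narrowly, as untreated tumor 2 lay just below NAM-treated tumor 1. *Nmnat1* fell by 0.69 on the log2 scale (SE 0.26, 95% confidence interval −1.27 to −0.10, limma adjusted p = 0.176). In M/D-driven tumors it was at 676.2, 537.8, 636.8 and 527.1 untreated and at 690.9, 712.4, 827.5 and 653.8 with NAM. The log2 fold change was thus of the other sign there, 0.28 (SE 0.20, limma adjusted p = 0.788), and 0.30 without NAM-treated tumor 1. The difference of the NAM effect between models, tested by an interaction term over the 14 tumors, was −0.97 (AT3 minus M/D, SE 0.32, interval −1.66 to −0.28, limma adjusted p = 0.229). *Nmnat1* was the 1 gene of the 10 past the thresholds for this difference, against 14.9% of the 22710 genes tested (7.9% higher and 6.97% lower), and it did not pass after adjustment.

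The fall of *Nmnat1* in AT3 tumors was past the thresholds under each of the 10 other settings run, with log2 fold changes of −0.69 to −0.62, but under only 2 of the 6 fits that left out 1 tumor. It lost the call without untreated tumor 1 (−0.58, limma adjusted p = 0.436), untreated tumor 3 (−0.58, adjusted p = 0.392), NAM-treated tumor 2 (−0.67, adjusted p = 0.491) or NAM-treated tumor 3 (−0.56, adjusted p = 0.55). Without untreated tumor 2 it was −0.90 (limma adjusted p = 0.0445). The interaction, in contrast, stayed past the thresholds in all 9 settings and all 14 fits that left out 1 tumor, from −1.18 to −0.84.

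Other measures moved with NAM in the AT3 tumors. Fold changes of all genes followed transcript length (Spearman's rho 0.60 across 15578 genes, which are not independent replicates, against −0.02 in M/D-driven tumors), long transcripts being higher with NAM. After each tumor's trend with length and GC content had been removed, *Nmnat1*, with 2657 bases, was lower with NAM by −0.62 (limma adjusted p = 0.139). The summed count of 5 B cell markers was 133.0 to 142.0 in untreated and 47.91 to 74.12 in NAM-treated AT3 tumors, with no marker at 0 in all tumors of a group. These B cell sums rest on few reads (18 to 57 for *Cd79a*), and *Pax5* was at 0 to 4.061 untreated and 2.43 to 5.645 with NAM. The sum of 5 endothelial markers was 4439.4 to 5641.1 untreated and 6132.1 to 8883.0 with NAM, though *Emcn* went from 1004.2 to 1466.0 to 826.1 to 1133.6. Of 6 macrophage markers, 3 passed as higher, against 12.2% of all genes, while *Cd68*, *C1qa* and *C1qb* had the other sign without passing. The sums of the 6 overlapped (27677.7 to 48197.7 untreated and 30771.3 to 44090.1 with NAM). The part of these cell types in the fall of *Nmnat1* was not tested.

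The promoters of *Nmnat1*, *Nmrk1* and *Qprt* are shown because the results above turn on these 3 genes. They run from 250 bases before to 50 bases after a RefSeq start site on GRCm38.p6, 5′ to 3′ on the strand of the gene, and capitals mark the motif matches named after them, in either orientation.
Nmnat1, chr4:149485161-149485460, minus strand: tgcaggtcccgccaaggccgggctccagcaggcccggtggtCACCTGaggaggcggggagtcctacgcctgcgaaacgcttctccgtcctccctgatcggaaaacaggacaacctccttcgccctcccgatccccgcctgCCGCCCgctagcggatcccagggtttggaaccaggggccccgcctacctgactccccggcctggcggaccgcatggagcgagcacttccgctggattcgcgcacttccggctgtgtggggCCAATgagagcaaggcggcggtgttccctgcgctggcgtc
Nmrk1, chr19:18631766-18632065, plus strand: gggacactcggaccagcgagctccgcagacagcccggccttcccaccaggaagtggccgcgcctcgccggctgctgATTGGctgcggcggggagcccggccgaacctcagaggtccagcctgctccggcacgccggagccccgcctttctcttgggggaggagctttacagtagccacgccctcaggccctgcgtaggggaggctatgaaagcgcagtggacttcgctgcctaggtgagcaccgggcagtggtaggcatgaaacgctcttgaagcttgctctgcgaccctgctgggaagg
Qprt, chr7:127121980-127122279, minus strand: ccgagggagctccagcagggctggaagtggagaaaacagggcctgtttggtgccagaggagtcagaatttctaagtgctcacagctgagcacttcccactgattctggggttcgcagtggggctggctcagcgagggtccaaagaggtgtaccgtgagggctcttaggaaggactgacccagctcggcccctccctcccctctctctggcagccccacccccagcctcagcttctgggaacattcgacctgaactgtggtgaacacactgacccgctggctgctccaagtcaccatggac

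The 5 motifs searched on both strands of these windows were the TATA box written as TATAAA, the CCAAT box, the GC box written as GGGCGG, the palindromic E-box CACGTG and the further E-box CAGGTG. The *Nmnat1* window held 3 of them. Its CCAAT lies 10 bases after the start site, the GGGCGG match on the other strand lies at −110, and the CAGGTG match, also on that strand, at −209. Of 32851 promoters of the same length, 37.4% hold the CCAAT box, 35.7% the GC box, 20.2% the further E-box, 13.6% the TATA box and 7.15% the palindromic E-box. The *Nmrk1* window held CCAAT only, on the other strand, and that of *Qprt* held none of the 5 motifs. CpG dinucleotides numbered 28 in the *Nmnat1* window, 23 in that of *Nmrk1* and 7 in that of *Qprt*, with a median of 7 over all promoters. RefSeq lists a further start site for *Nmnat1*, whose window holds the same 3 motifs. A window was found for 8 of the 10 genes, all but *Naprt* and *Nnmt*.

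*Nmnat3* (GSMG0039955, chr9:98287454-98420394 on mm10), the mitochondrial enzyme, had fold changes opposite in sign to those of *Nmnat1* in both models, without passing the thresholds. Untreated M/D-driven tumors had 367.7, 287.9, 397.3 and 356.5 normalized counts and NAM-treated ones 294.5, 280.1, 301.0 and 284.0. The 4 NAM-treated tumors were close to each other (289.9 ± 9.59, SD, n = 4), and only untreated tumor 2 reached down into their range. The log2 fold change was −0.27 (SE 0.22, limma adjusted p = 0.801). In AT3 tumors *Nmnat3* was at 129.0, 95.44 and 135.1 untreated and at 123.9, 127.0 and 139.6 with NAM, with a log2 fold change of 0.13 (SE 0.29, limma adjusted p = 0.79). *Nmnat2* (GSMG0000896, chr1:152954990-153119265 on mm10), an enzyme best known from neurons, was near the limit of the filter, at 15.29 to 28.54 in untreated M/D-driven and 18.84 to 26.4 in untreated AT3 tumors. Its NAM-treated M/D-driven tumors ran from 3.395 in tumor 1 to 59.83 in tumor 3, so that its log2 fold change of −0.63 had an SE of 0.80 and became −0.027 without tumor 1.

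**Figure D3:**
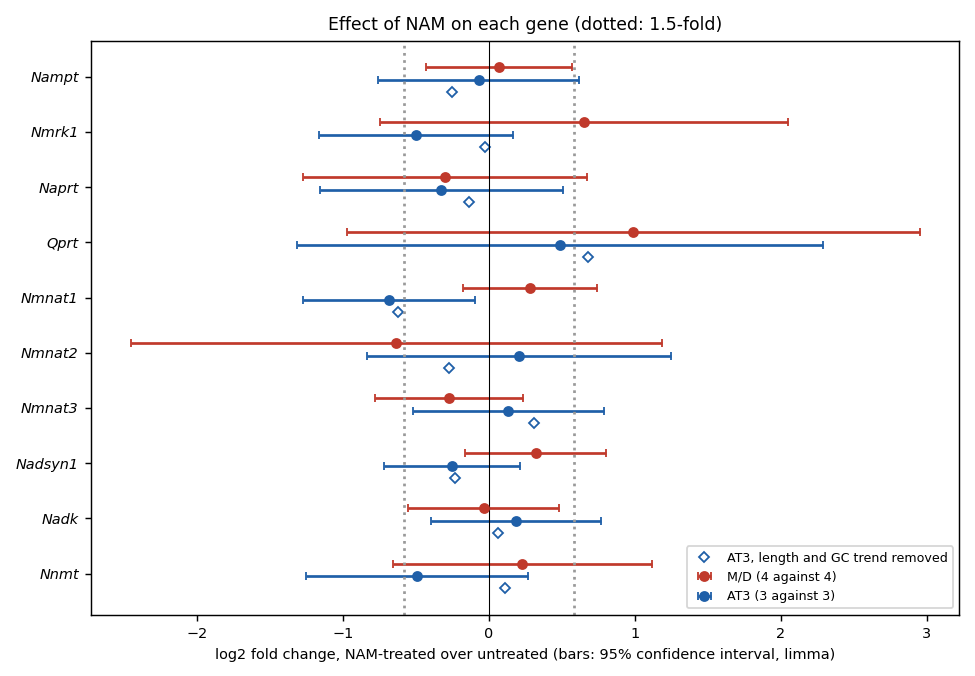
Effect of NAM on each gene as the log2 fold change of NAM-treated over untreated tumors on the log2(normalized count + 1) scale, with 95% confidence intervals from limma, for M/D-driven tumors (4 against 4) and AT3 tumors (3 against 3); open diamonds give the AT3 value after removal of the trend with length and GC content, and dotted lines mark 1.5-fold. Every interval but that of *Nmnat1* in AT3 tumors (−1.27 to −0.10) includes 0.

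The enzymes of the last steps gave no call with NAM. *Nadsyn1* (GSMG0036923, chr7:143795588-143822852 on mm10), which amidates the acid dinucleotide, was at 447.7, 511.7, 520.4 and 380.6 normalized counts in untreated M/D-driven tumors and at 600.1, 504.2, 608.4 and 600.9 with NAM. NAM-treated tumors 1, 3 and 4 were close to each other and above all untreated ones, with tumor 2 inside the untreated range. The log2 fold change was 0.32 (SE 0.21, limma adjusted p = 0.773). In AT3 tumors it was at 1056.5, 935.1 and 879.1 untreated and at 782.5, 855.1 and 765.0 with NAM, groups that did not overlap, with a log2 fold change of −0.25 (SE 0.21, limma adjusted p = 0.445). The difference between models was −0.57 (SE 0.28, limma adjusted p = 0.353), short of the thresholds, and passed them with DESeq2 on recovered reads (−0.62, adjusted p = 0.09). *Nadk* (GSMG0027484, chr4:155562392-155590989 on mm10), which makes NADP, was at 8646.2, 5710.7, 9515.4 and 7763.3 untreated and at 6181.2, 9235.7, 8921.4 and 6502.7 with NAM in M/D-driven tumors, with full overlap and a log2 fold change of −0.03 (SE 0.23), or 0.064 without NAM-treated tumor 1. In AT3 tumors *Nadk* was at 4267.9, 2376.9 and 3699.5 untreated and at 3330.3, 4193.9 and 3947.1 with NAM, a log2 fold change of 0.18 (SE 0.26).

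More of the 10 genes were past the thresholds between the models than with NAM, as was the case over all genes (51.4% against 6.22% and 23.1%). On the common scale, 7 of the 10 genes differed between untreated M/D-driven and untreated AT3 tumors at the same thresholds, 4 higher and 3 lower in M/D-driven tumors, against 51.4% of the 22837 genes tested (27% higher and 24.4% lower). The side of NAD synthesis that starts from nicotinic acid was split, since *Naprt* was higher and *Nadsyn1* lower in M/D-driven tumors. *Naprt* had 319.4, 835.8, 448.5 and 544.0 counts on the common scale in untreated M/D-driven tumors and 188.8, 130.6 and 112.1 in untreated AT3 tumors, a log2 fold change of 1.84 (SE 0.43, limma adjusted p = 0.00434). *Nadsyn1* had 413.4, 480.7, 476.0 and 354.0 against 1310.8, 1113.6 and 1090.3, a log2 fold change of −1.45 (SE 0.20, limma adjusted p = 0.000196). In neither case did the groups overlap, as was true of 51.7% of all genes tested, and AT3 tumors thus had little *Naprt* beside ample *Nadsyn1*.

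*Nmnat1* and *Nmnat3* also went in opposite directions between the models. *Nmnat1* had 624.4, 505.2, 582.4 and 490.2 common-scale counts in untreated M/D-driven and 2080.4, 1284.1 and 2071.6 in untreated AT3 tumors, a log2 fold change of −1.69 (SE 0.24, limma adjusted p = 0.000217). *Nmnat3* had 339.5, 270.4, 363.3 and 331.5 against 160.0, 113.7 and 167.6, a log2 fold change of 1.16 (SE 0.25, limma adjusted p = 0.00279). *Nmnat2* did not pass the thresholds, with 21.94 ± 5.27 (SD, n = 4) against 27.36 ± 4.03 (SD, n = 3).

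*Nampt* was lower and *Nnmt* higher in M/D-driven tumors, although less firmly. *Nampt* had 7031.4, 4457.8, 4976.7 and 4386.8 common-scale counts against 10051.2, 5675.8 and 13228.0, a log2 fold change of −0.83 (SE 0.28, limma adjusted p = 0.0287). Its groups overlapped, and the call was lost without untreated AT3 tumor 3, the highest of the 7 (−0.56, adjusted p = 0.15). *Nnmt* had 757.7, 471.5, 624.3 and 1220.5 against 401.0, 253.9 and 426.0, a log2 fold change of 1.04 (SE 0.41, limma adjusted p = 0.0525). The call for *Nnmt* was lost without untreated M/D-driven tumor 4 (0.79, limma adjusted p = 0.143) or untreated AT3 tumor 2 (0.80, adjusted p = 0.173). *Nadk* had 7983.8, 5364.1, 8702.7 and 7219.3 against 5295.3, 2830.6 and 4588.4, a log2 fold change of 0.81 (SE 0.26, limma adjusted p = 0.0202), which fell short without untreated AT3 tumor 2 (0.55) and after removal of the trend with length and GC content (0.23).

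*Nmrk1* and *Qprt* did not pass the thresholds between the models in the limma fit of all 14 tumors after median-ratio scaling, with log2 fold changes of −0.60 (SE 0.55) and 1.77 (SE 0.86). *Qprt* passed them with TMM scaling (1.93, limma adjusted p = 0.0825) and with DESeq2 on recovered reads (1.90, adjusted p = 0.0766). *Nmrk1* had 146.7 to 180.4 common-scale counts in untreated M/D-driven and 220.1 to 284.7 in untreated AT3 tumors, so that the groups did not overlap. Without NAM-treated M/D-driven tumor 1, which had the highest values of both genes, *Nmrk1* (limma adjusted p = 0.0769) and *Qprt* (adjusted p = 0.0561) passed the thresholds with the same fold changes. *Qprt* also passed without untreated M/D-driven tumor 3 (2.12, limma adjusted p = 0.0858) or untreated AT3 tumor 1 (2.41, adjusted p = 0.067), and with the 7 untreated tumors alone in the fit neither gene passed.

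**Figure D4:**
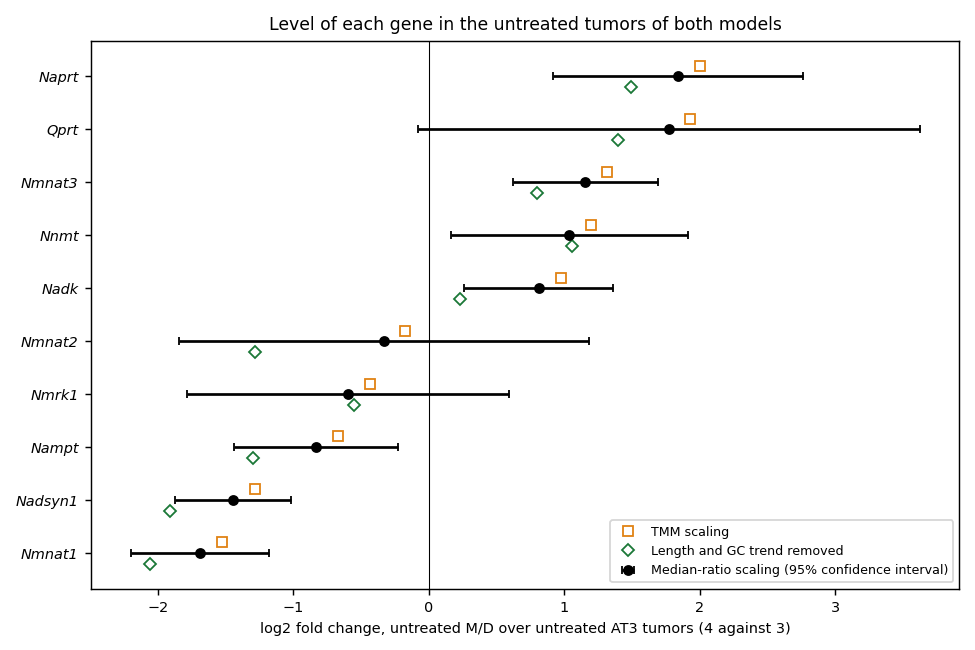
Log2 fold change of each gene in untreated M/D-driven over untreated AT3 tumors (4 against 3) on the common scale, with 95% confidence intervals from limma; orange squares give TMM scaling and green diamonds the value after removal of each tumor's trend with length and GC content. *Naprt*, *Nmnat3*, *Nnmt* and *Nadk* lie above 0 and *Nampt*, *Nadsyn1* and *Nmnat1* below it under all 3 scalings.

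The model, the experiment and the origin of the tumor (arisen in its host or grown from a line) cannot be told apart in this comparison. TMM scaling moved the median log2 fold change of all genes from 0.08 to 0.23, removal of the trend moved that of the 17686 genes with a known length from 0.24 to −0.34, and none of the 7 calls changed sign. Cell type markers differed between the models as well. All 6 adipocyte markers and 4 of 6 macrophage markers were past the thresholds as higher in untreated M/D-driven tumors, and 0 as lower. So were 4 of 5 T cell, 4 of 5 endothelial, 3 of 5 tested neutrophil and 2 of 6 fibroblast markers, again with 0 lower. Of the B cell and skeletal muscle markers, 0 passed. Among all genes, 27% were higher and 24.4% lower. On the common scale, the summed count of adipocyte markers was 33129.5 to 89327.6 in untreated M/D-driven and 6864.3 to 11549.0 in untreated AT3 tumors. That of macrophage markers was 72308.9 to 98277.1 and 32961.4 to 59777.8. Among the latter, *Cd68* had the other sign without passing, at 3192.3 to 5516.0 against 5200.6 to 8700.9 in untreated AT3 tumors. The sum of 7 epithelial markers was 285285.5 to 942084.9 against 100194.7 to 124764.5, but only *Krt19* (5.76) and *Krt5* (4.17) passed, and *Krt8* (−0.90) had the other sign. *Cdh1* (32588.1 to 40456.1 against 8217.6 to 11858.1) and *Krt14* (29564.7 to 699324.4 against 13444.2 to 26457.4) did not pass. Their untreated groups did not overlap, as for 51.7% of all genes. The spread in this fit of 14 tumors includes NAM-treated M/D-driven tumor 1, which had the lowest epithelial markers of the 8. The part of these cells in the levels of the 10 genes was not tested. Against the same 27% higher and 24.4% lower of all genes, the wider pathway had 4 genes higher and 2 lower in M/D-driven tumors of 7 tested on the kynurenine route, 2 and 5 of 17 in other salvage, transport and NADP steps, 8 and 4 of 15 in NAM oxidation and the methyl donor cycle, and 6 and 4 of 18 among NAD consumers.

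Levels were compared between genes per kilobase of the longest annotated transcript. In untreated M/D-driven tumors the order of level was *Nadk* (2321.5 ± 455.7 common-scale counts per kilobase, SD, n = 4), *Nampt* (1151.6 ± 274.0), *Nnmt* (736.8 ± 309.9), *Naprt* (282.9 ± 115.6), *Nmnat1* (207.2 ± 23.97), *Nadsyn1* (163.2 ± 22.65), *Nmnat3* (150.6 ± 18.26), *Nmrk1* (82.44 ± 8.12), *Qprt* (18.66 ± 14.73) and *Nmnat2* (4.73 ± 1.14). The neighbors *Nampt* and *Nnmt*, *Naprt* and *Nmnat1*, and *Nadsyn1* and *Nmnat3* overlapped between tumors, and the others did not. In untreated AT3 tumors *Nampt* came first (2132.0 ± 837.6, SD, n = 3), overlapping with *Nadk* (1344.6 ± 402.6). *Nmnat1* (682.0 ± 172.1), *Nadsyn1* (443.6 ± 45.87) and *Nnmt* (345.5 ± 89.15) followed, and *Naprt* (75.77 ± 21.1) came only seventh. *Nmnat1* and *Nadsyn1* overlapped in these tumors, as did *Naprt* and *Nmnat3*, and *Nmnat2* and *Qprt*. With NAM, *Nampt* and *Nadk* remained the highest pair in each model and *Qprt* and *Nmnat2* the lowest pair.

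**Figure D5:**
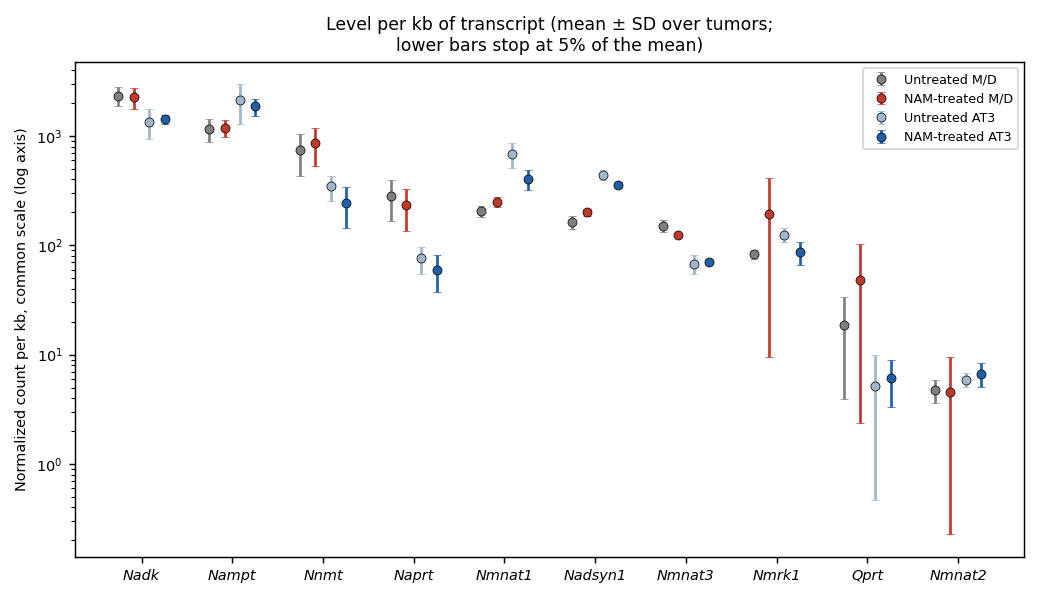
Level of each gene per kilobase of transcript (log axis, counts on the common scale) as the mean ± SD over the tumors of each group (n = 4 for M/D, n = 3 for AT3), in the order of untreated M/D-driven tumors; lower bars stop at 5% of the mean. *Nadk* and *Nampt* lie above all others in each group, and *Qprt* and *Nmnat2* below.

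The wider pathway was read from 4 further gene lists, again at the same thresholds. Of the kynurenine route, which makes NAD from tryptophan, 7 of 11 genes could be tested in M/D-driven and 6 in AT3 tumors, and 0 passed with NAM in either model. Of 17 tested genes of other salvage, transport and NADP steps, 1 passed in M/D-driven tumors, against 6.22% of all genes. This was *Nt5e* (CD73), an ectonucleotidase, which was lower with NAM by −2.12 on the log2 scale (SE 0.74, limma adjusted p = 0.734), with 4348.5 ± 1426.0 (SD, n = 4) normalized counts untreated and 538.2, 5144.0, 545.8 and 539.1 with NAM. NAM-treated tumors 1, 3 and 4 were thus almost equal and far below every untreated tumor, while tumor 2 was within the untreated range. Without tumor 1 the call was lost (−1.85, limma adjusted p = 0.812). In AT3 tumors 2 of 17 passed, 1 in each direction, against 12.2% higher and 10.9% lower among all genes. *Nnt*, the mitochondrial transhydrogenase, was higher (0.64, SE 0.23, limma adjusted p = 0.171) and *Naxe*, an epimerase that repairs NADH hydrates, was lower (−0.81, SE 0.31, adjusted p = 0.178), the latter by only −0.19 with the trend removed.

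NAM is cleared by oxidation as well as by methylation, and the methyl group comes from the methionine cycle. Of 15 tested genes of these steps, 2 were higher and 0 lower in the NAM-treated M/D-driven tumors, against 3.03% and 3.19% of all genes. In each of the 2 the groups did not overlap, as was the case for 4.43% of all genes tested. *Cyp2e1*, a cytochrome P450 that oxidizes NAM, went from 129.8, 386.8, 196.8 and 441.8 normalized counts to 2617.0, 969.4, 2792.8 and 468.5 (log2 fold change 2.39, SE 0.65, limma adjusted p = 0.734). *Cyp2e1* is also a gene of fat cells. The summed count of 6 adipocyte markers was 35270.0 to 96059.7 in untreated and 51194.8 to 156064.7 in NAM-treated M/D-driven tumors. All 6 had a fold change above 0, and 1 passed as higher, against 3.03% of all genes. Only *Adipoq* did not overlap between the groups, at 5122.9 to 7451.9 untreated and 8357.5 to 13108.5 with NAM. It was past the thresholds without NAM-treated tumor 1 (log2 fold change 0.73). The part of fat cells in the value of *Cyp2e1* was not tested. *Ahcy*, which removes S-adenosylhomocysteine, the by-product of methylation, went from 3960.6, 3160.6, 2888.2 and 2975.9 to 5281.4, 4222.1, 6399.2 and 8440.1 (log2 fold change 0.87, SE 0.24, limma adjusted p = 0.734). Without NAM-treated tumor 1 the log2 fold changes were 2.07 for *Cyp2e1* and 0.92 for *Ahcy*, both past the thresholds, as was then *Gnmt* (1.17), which had been at 0.78. Markers of other cell types varied widely among these tumors, and their sums overlapped between untreated and NAM-treated ones. The summed count of 7 epithelial markers was 308956.7 to 1013084.4 in untreated tumors. With NAM it was 7047.0 in tumor 1 and 250181.1 to 616768.5 in the others. Of these 7 markers, 0 had a fold change above 0 and 0 passed the thresholds (*Cdh1* did without NAM-treated tumor 1). The sum of 5 skeletal muscle markers was 38.43 to 23049.1 untreated and 884.6 to 218567.7 with NAM. Of these, 5 had a fold change above 0 and 1 passed. Their part in the value of *Ahcy* was not tested. In AT3 tumors *Ahcy* had a log2 fold change of −0.35 (limma adjusted p = 0.315), and the difference between models was past the thresholds (−1.22, limma adjusted p = 0.192). Of 13 tested genes there, 4 passed with NAM, 2 in each direction, against 12.2% higher and 10.9% lower among all genes. *Ahcyl1*, a relative of *Ahcy*, was higher by 1.00, whereas *Gnmt*, which consumes S-adenosylmethionine, was lower by −0.78 and *Aox1*, an aldehyde oxidase, by −0.70 (limma adjusted p from 0.166 to 0.192). With the trend with length removed, *Gnmt* (−0.23) fell short, and *Ahcyl1* (0.77) and *Aox1* (−1.31) did not.

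The last list held the enzymes that consume NAD and give back NAM. In M/D-driven tumors 1 of 18 passed, against 6.22% of all genes. This was *Sirt4*, a mitochondrial sirtuin, which went from 278.8 ± 23.73 to 486.3 ± 126.6 (SD, n = 4; log2 fold change 0.76, limma adjusted p = 0.734). In AT3 tumors 4 of 18 were higher with NAM and 0 were lower, against 12.2% and 10.9% of all genes. *Tnks*, a poly-ADP-ribosylating tankyrase, went from 139.1, 319.8 and 162.0 to 343.8, 1430.0 and 1667.1 (log2 fold change 2.27, SE 0.58, limma adjusted p = 0.166). The deacetylase *Sirt1* was higher by 0.94, *Tnks2* by 0.88 and the poly-ADP-ribose polymerase *Parp1* by 0.73 (limma adjusted p from 0.166 to 0.171). With the trend removed, *Tnks* (1.49) and *Sirt1* (0.67) remained past the thresholds, and *Tnks2* (0.30) and *Parp1* (0.40) did not. The median over the list was 0.13 in AT3 tumors and 0.23 in M/D-driven tumors, against −0.05 and 0.01 over all genes tested. The M/D median includes NAM-treated tumor 1, which was the highest of the 8 for 9 of these 18 genes. That was so for 23.6% of all genes above 0. The median without this tumor was not computed.

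The genes whose pattern was most like those of *Nampt* and *Nnmt* were sought over the 14 tumors, after log2 values had been centred within each model, among 15414 named genes. The points share libraries and include both treatments, and the correlations are given as a description. For *Nampt* they were *Ms4a6b* (Pearson's r 0.90, Spearman's rho 0.86), *Aida* (0.89 and 0.92), *Gimap7* (0.89 and 0.89), *Gm6904* (0.89 and 0.84) and *Skap1* (0.88 and 0.90). *Ms4a6b*, *Gimap7* and *Skap1* are best known from leukocytes. Without the 2 tumors farthest from the median of *Nampt*, r was 0.78 to 0.84 for these 5 genes. For *Nnmt* they were *Narfl* (listed together with *Mir6966*), with r 0.90 and rho 0.88, and *Npl*, *Pde1a* and *Ccl9*, with r 0.88 to 0.89. Among the 10 genes, the pair with the highest Pearson's r was *Nmnat3* and *Nadk* (r 0.68, rho 0.49), whereas *Nmrk1* and *Qprt* went from r 0.56 to −0.33 without NAM-treated M/D-driven tumor 1.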

How the data were processed

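A total of 14 whole tumors was profiled by paired-end sequencing of polyadenylated RNA. Per the methods of the study and the submitters' processing notes, the authors mapped reads with STAR 2.4.0 on mm10 and counted those on the constitutive regions of Mouse FAST DB genes. The values they deposited are a normalized signal, namely counts divided by a DESeq2 size factor per tumor, set within each model as far as the values show. Within a tumor, every value was a multiple of the worth of 1 read, and whole reads came back for 100% of values (tolerance 0.05 reads), 40936868 to 84178009 per tumor. Counting error is included in the spread between tumors. All tumors were grouped by their labels, and 0 columns were left unmapped. As the labels do not state that the tumors of a group came from separate mice, p values measure only the spread between these tumors.

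Genes that reached a mean of 10 in any group entered the test, made with limma 3.58.1 (R 4.3.3, mean-variance trend) on log2(normalized count + 1), a scale that understates the changes of low genes. The thresholds were a p up to 0.05, not adjusted, together with a change of 1.5-fold or more. Adjusted p values are Benjamini-Hochberg values over all genes tested. NAM was tested within each model, its difference between models by an interaction term, and untreated tumors were compared after median-ratio scaling over the 14 tumors. The alternatives comprised a pseudocount of 0.5 or 5, all genes or a minimum mean of 50, TMM factors, edgeR 4.0.16 and DESeq2 1.42.0 on recovered reads, the replicate number as a block, removal of each tumor's trend with the length and GC content of the longest GENCODE transcript (spline, 4 degrees of freedom), all 14 tumors in 1 fit, each tumor left out, and, added after the data were seen, the 7 untreated tumors alone. Python 3.11.15 with pandas 2.3.3 was used for the tables.

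All 10 genes are named. Other pathway genes are named where they passed in a comparison of NAM, up to the 4 of smallest p per list and comparison. The genes most like *Nampt* and *Nnmt* are the 5 with the highest Pearson correlation. A few genes that meet these rules are not reported here. *Slc29a4* was not analysed here, and *Naxd* and *Naxe* were matched by older symbols. The genes and lists were chosen with earlier results of these data known. Promoter sequences are those of RefSeq on GRCm38.p6.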

Additional observations from a re-analysis of the deposited data

Results flagged for a closer look

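In groups of 4 tumors, the highest and lowest values of each of the 10 genes were compared with the rest by Dixon's ratio of the gap to the range. Of 20 groups so tested, 2 held such a value, and chance gives about 1 in 20. The normalized count of *Nmrk1* in NAM-treated M/D-driven tumor 1 was 1087.4, a gap of 0.961 of the range. This tumor, the only one of experiment 2, had the highest values of the 8 M/D-driven tumors for 23.6% of all genes above 0 and the lowest for 18.1%. It was highest for 5 of 5 B cell, 4 of 5 endothelial and 4 of 6 adipocyte markers, 9 of 18 NAD consumers, 5 of 11 genes of the kynurenine route, 6 of 19 of other salvage, 3 of 15 of oxidation and the methyl cycle and 2 of the 10 genes. It was lowest for 7 of 7 epithelial, 4 of 5 T cell and 4 of 6 macrophage markers and for 2 of the 10 genes. Of the wider pathway, it was lowest for 6 of 19 genes of other salvage and 4 of 15 of oxidation and the methyl cycle. The same held for 1 of 11 genes of the kynurenine route and 1 of 18 NAD consumers. The normalized count of *Nadsyn1* in NAM-treated M/D-driven tumor 2 was 504.2, a gap of 0.92 of the range, and it was the lowest of its group.

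The difference of the NAM effect on *Nmnat1* between the models was −0.97 on the log2 scale (AT3 minus M/D, limma interaction term, adjusted p = 0.229), past the thresholds before adjustment, as were 14.9% of all genes, and not after it. With NAM its log2 fold change was 0.28 in M/D-driven and −0.69 in AT3 tumors.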

How the results depend on the processing

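Under the other settings, 0 of the 10 genes passed with NAM in M/D-driven tumors in each of the 10 settings and 8 fits that left out a tumor. In AT3 tumors, the number lower was 0 to 2 when a tumor was left out, 0 without untreated tumor 1 or 3 or NAM-treated tumor 2 or 3, and 2 without NAM-treated tumor 1, when *Nnmt* was added (−0.78). For the difference between models it was 2 with DESeq2 and 1 to 2 when a tumor was left out, *Nadsyn1* being added without NAM-treated M/D-driven tumor 2 (−0.64). Between the untreated groups, the number higher in M/D-driven tumors was 2 to 5 when a tumor was left out, 2 without untreated AT3 tumor 2 (*Nnmt* and *Nadk* lost) and 5, with *Qprt* added, without NAM-treated M/D-driven tumor 1, untreated M/D-driven tumor 3 or untreated AT3 tumor 1, as with TMM scaling and DESeq2.

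With the trend with length and GC content removed, the sign turned for *Nadk* with NAM in M/D-driven tumors (0.11), *Nmnat2* (−0.27) and *Nnmt* (0.11) with NAM in AT3 tumors, and *Nadk* in the difference between models (−0.033). TMM scaling turned *Naprt* in that difference (0.10). When a tumor was left out, log2 fold changes crossed 0 with NAM in M/D-driven tumors for *Nadk* (−0.18 to 0.064), *Nampt* (−0.038 to 0.22), *Naprt* (−0.54 to 0.017) and *Nmrk1* (−0.012 to 0.92). They did so in AT3 tumors for *Nmnat3* (−0.022 to 0.23), *Nadk* (−0.062 to 0.36) and *Nampt* (−0.39 to 0.19), and in the difference for *Naprt* (−0.34 to 0.22), *Qprt* (−0.96 to 0.18), *Nadk* (−0.027 to 0.39) and *Nampt* (−0.46 to 0.12). None of these values was past the thresholds, and the cause was not tested.

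Over all genes, the number past the thresholds was 859 to 2180 with NAM in M/D-driven tumors under the other settings (main 1350) and 784 to 2712 when a tumor was left out, 2511 to 5082 and 1618 to 6765 in AT3 tumors (main 4458), 1925 to 4230 and 1838 to 4574 for the difference (main 3377), and 9271 to 13195 and 10244 to 12597 between untreated tumors (main 11727). At an adjusted p of 0.05, limma called 0 genes for the difference (3387 at an unadjusted p of 0.05), edgeR 0 and DESeq2 840, *Nmnat1* among the latter (adjusted p = 0.0464). Over the genes with a known length, removal of the trend changed the split between untreated models from 5474 higher and 4045 lower to 3285 and 5986, that with NAM in AT3 tumors from 2298 and 1608 to 1225 and 1286, and that of the difference from 1704 and 956 to 843 and 1082. TMM scaling changed that of the difference over all genes from 1795 and 1582 to 2295 and 1177.

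The deviations from group means of tumors sharing a replicate number had correlations of −0.444 to 0.11 in M/D-driven and −0.16 to 0.256 in AT3 tumors. With so few tumors, these values cannot show whether the numbers pair the tumors. At an adjusted p of 0.05, limma with the replicate number as a block called 1296 genes with NAM in AT3 tumors, against 1 without it. In M/D-driven tumors it called 0, against 1. With the replicate block, *Nmnat1* in AT3 tumors kept its fold change of −0.69 (limma adjusted p = 0.12), and the genes past the thresholds were 479 higher and 522 lower in M/D-driven tumors, against 658 and 692, and 2702 and 2380 in AT3 tumors, against 2358 and 2100. With 3 or 4 tumors a group, a gene as variable as *Qprt* or *Nmnat2* has an interval of several log2 units.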

Other observations

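The ratio of *Nmnat3* to *Nmnat1*, taken within a library and so free of its scaling, was chosen after the values were seen and is given with no test. It was 0.535 to 0.676 in untreated and 0.364 to 0.434 in NAM-treated M/D-driven tumors, and 0.0769 to 0.0885 in untreated and 0.114 to 0.186 in NAM-treated AT3 tumors. In both models the groups did not overlap, and the direction was opposite. How many other pairs of genes do the same was not counted. Of single genes, the groups did not overlap for 4.43% in M/D-driven and 22.6% in AT3 tumors. The ratio of *Naprt* to *Nampt* was 0.0454 to 0.188 in untreated M/D-driven and 0.00847 to 0.0230 in untreated AT3 tumors, and that of *Nadk* to *Nadsyn1* was 11.16 to 20.4 and 2.54 to 4.21.

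NAM-treated M/D-driven tumor 1 also held the highest count of *Haao*, an enzyme of the kynurenine route just before the step of *Qprt*, at 2364.8, against 49.89 to 211.9 in the other 7 M/D-driven tumors. *Haao* was chosen after its values were seen.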
